A study of Mus musculus with 8 samples.

Results

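The immediate-early transcription factors Fos, Fosl1, Fosl2, Jun, Junb, Egr1, Atf3, Klf2, Klf4 and Klf6 were followed in primary mouse peritoneal mesothelial cells (MCs) by RNAseq. All 10 were taken by name, and all 10 had a row in the deposited table of 13687 genes. Each member had a level in all 8 libraries and passed the filter on low values, which left 13665 genes for testing. The MCs came from WT mice and from CAV1-/- littermates (B6.Cg-CAV1tm1mls/J), which lack caveolin-1, the structural protein of caveolae, in the whole animal. Cells of each mouse were grown to confluence in a static dish and were then either kept static or stretched for 24 h. There were 4 groups of 2 cultures (static WT, stretched WT, static CAV1-/- and stretched CAV1-/-). They came from 4 animals, 2 per genotype, and each animal gave 1 static and 1 stretched culture. RNA was taken once, at 24 h, so the levels describe the late state of the culture and not the first minutes or hours of stretch.

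Immediate-early genes are switched on by growth factors, stress and mechanical load without new protein synthesis. Their messenger RNAs are short-lived. Fos, Fosl1 and Fosl2 encode FOS-family proteins, which bind DNA only as partners of JUN-family proteins, encoded here by Jun and Junb, in the dimeric factor AP-1. Atf3 encodes a stress-induced factor of the same leucine zipper class. Egr1 encodes a zinc finger factor downstream of ERK and SRF. Klf2 and Klf4 are Krüppel-like zinc finger factors known from flow-exposed endothelium and from epithelia, and Klf6 is a broadly expressed member of the same family. Mesothelial cells line the peritoneal cavity and are exposed to stretch.

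The promoters of the members are shown to make the binding motifs of these same factor families visible. RefSeq promoter windows of GRCm38.p6, from 250 bases before to 50 bases after the start site (300 bases), were matched by symbol for 8 of the 10 members. Fosl1 and Egr1 had no entry. Both strands were searched for the EGR site (GCGGGGGCG or GCGTGGGCG), the GC box bound by SP and KLF factors (GGGCGG), the TATA box (TATAAA), the AP-1 site TRE (TGACTCA), the CRE (TGACGTCA), the CArG box of SRF and the TEAD site (GGAATG). An EGR site was in 3 of the 8 windows (Fosl2, Klf2 and Klf4), against 3.47% of all 32851 promoters. Each of the 3 overlaps a GC box, so the same bases count for both motifs. The windows of Fosl2, Klf2 and Klf4 are shown for this site, that of Fos for its TATA box and the GC box upstream of it, and that of Jun as 1 of the 2 members, with Klf6, that were higher on stretch in all 4 animals. Letters in capitals mark EGR sites, GC boxes and TATA boxes on either strand.
Fosl2 (chr5:32136222-32136521, plus strand): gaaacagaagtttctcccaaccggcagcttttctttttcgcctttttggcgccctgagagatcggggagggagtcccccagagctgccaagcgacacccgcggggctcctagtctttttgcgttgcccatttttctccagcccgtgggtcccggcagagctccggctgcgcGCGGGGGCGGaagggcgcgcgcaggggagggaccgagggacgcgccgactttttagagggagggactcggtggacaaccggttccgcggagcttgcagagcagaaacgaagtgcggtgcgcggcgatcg
Klf2 (chr8:72318812-72319111, plus strand): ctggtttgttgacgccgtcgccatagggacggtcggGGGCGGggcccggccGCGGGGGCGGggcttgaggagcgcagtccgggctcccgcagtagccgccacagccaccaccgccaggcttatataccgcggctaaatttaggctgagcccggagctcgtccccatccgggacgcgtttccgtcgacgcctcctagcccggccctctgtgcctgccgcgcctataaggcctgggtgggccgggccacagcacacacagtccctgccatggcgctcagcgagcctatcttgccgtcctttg
Klf4 (chr4:55532426-55532725, minus strand): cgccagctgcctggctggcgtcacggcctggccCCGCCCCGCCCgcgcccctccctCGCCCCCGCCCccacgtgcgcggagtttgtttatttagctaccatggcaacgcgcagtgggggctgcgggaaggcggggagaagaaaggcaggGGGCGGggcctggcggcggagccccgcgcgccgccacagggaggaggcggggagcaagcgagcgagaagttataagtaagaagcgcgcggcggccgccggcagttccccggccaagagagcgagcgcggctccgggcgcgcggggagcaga
Fos (chr12:85473640-85473939, plus strand): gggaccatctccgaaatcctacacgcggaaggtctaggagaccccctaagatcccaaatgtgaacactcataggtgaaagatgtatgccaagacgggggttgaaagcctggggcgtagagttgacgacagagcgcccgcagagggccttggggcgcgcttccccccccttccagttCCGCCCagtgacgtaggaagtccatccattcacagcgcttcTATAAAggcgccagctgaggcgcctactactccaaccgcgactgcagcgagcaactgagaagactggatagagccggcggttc
Jun (chr4:95052173-95052472, minus strand): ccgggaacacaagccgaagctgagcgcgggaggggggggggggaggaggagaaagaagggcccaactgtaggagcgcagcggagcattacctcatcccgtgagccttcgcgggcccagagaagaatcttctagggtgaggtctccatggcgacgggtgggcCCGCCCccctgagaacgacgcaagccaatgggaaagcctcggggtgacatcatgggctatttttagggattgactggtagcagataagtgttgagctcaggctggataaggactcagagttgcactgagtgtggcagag
A GC box was in 7 of the 8 windows, all but that of Junb, against 35.7% of all promoters. The TATA box was in the windows of Fos and Junb, against 13.6% of all promoters. In Fos it starts 33 bases before the start site. In Junb (minus strand) the match starts at the RefSeq start site of the window (chr8:84978699-84978998). GENCODE M21 starts Junb further downstream, at 84978718, so the match lies before that start, and the 2 annotations differ here. None of the 8 windows held the TRE, the CRE, the CArG box or the TEAD site in these letters. These occur in 5.2%, 1.79%, 1.63% and 14.7% of all promoters. A match is a description of the letters and no measurement of binding.

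Per library, 9777738 to 21203938 reads were counted, and each of the 4 libraries from stretched cells had more reads than any of the 4 static ones. Depth and stretch cannot be told apart, but the deposited values are normalized for depth. A floor of 3 reads corresponds to 0.146 to 0.308 TMM-normalized CPM (CPM, counts per 1000000 reads, here scaled by edgeR's trimmed mean of M-values), and the lowest count of any member was 42 reads (Atf3). Floors cover counting error only. Cav1 was between 247 and 764 in the WT cultures and between 12.8 and 34.5 in the CAV1-/- cultures, so every library matched its genotype label. Of 14 mesothelial markers listed, 12 were in the table. Their summed level was 3074 to 4001 in WT and 924 to 1169 in CAV1-/- cultures, and none was at 0 reads in any library. The 12 leukocyte markers found of 14 summed to 4735 and 4757 in the static and the stretched culture of CAV1-/- replicate 1 and to between 78.8 and 464 in the other 6 cultures, with none at 0 reads. The 10 fibroblast markers summed to between 8755 and 11331 in the replicate 1 cultures and between 14173 and 20511 in the replicate 2 cultures of both genotypes. The 6 endothelial markers found of 10 summed to between 24.1 and 73.7, with at most 1 at 0 reads in a library. In bulk RNA, fewer cells of a type and less RNA per cell cannot be told apart. The part of these cell types in the levels below was not tested.

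Per kilobase of exon, the members lay in the order Junb, Klf6, Fosl2, Jun, Fosl1, Egr1, Klf4, Fos, Klf2 and Atf3 by their median over the 8 libraries, which ran from 49.2 for Junb to 2.29 for Atf3 (TMM-normalized CPM per kb). Junb spanned 38.9 to 59.4 per kb over the libraries, above Jun, at 23.7 to 36.3, in every library. The next members, Klf6 (26.9 to 38.5), Fosl2 (25.4 to 35.7) and Jun, overlapped one another, as did Fosl1 (16.6 to 26.3), Egr1 (8.85 to 40.7) and Klf4 (12.6 to 29.0). Fos (4.35 to 14.4), Klf2 (3.20 to 18.8) and Atf3 (1.57 to 15.5) also overlapped. The steadiest members over all 8 libraries were Fosl2, with a highest level 1.41 times the lowest, and Klf6, with 1.43 times. The widest range was that of Atf3, at 9.84 times, followed by Klf2 at 5.87 times and Egr1 at 4.60 times. The levels in every culture are drawn for all members in the panels that follow.

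**Figure D1:**
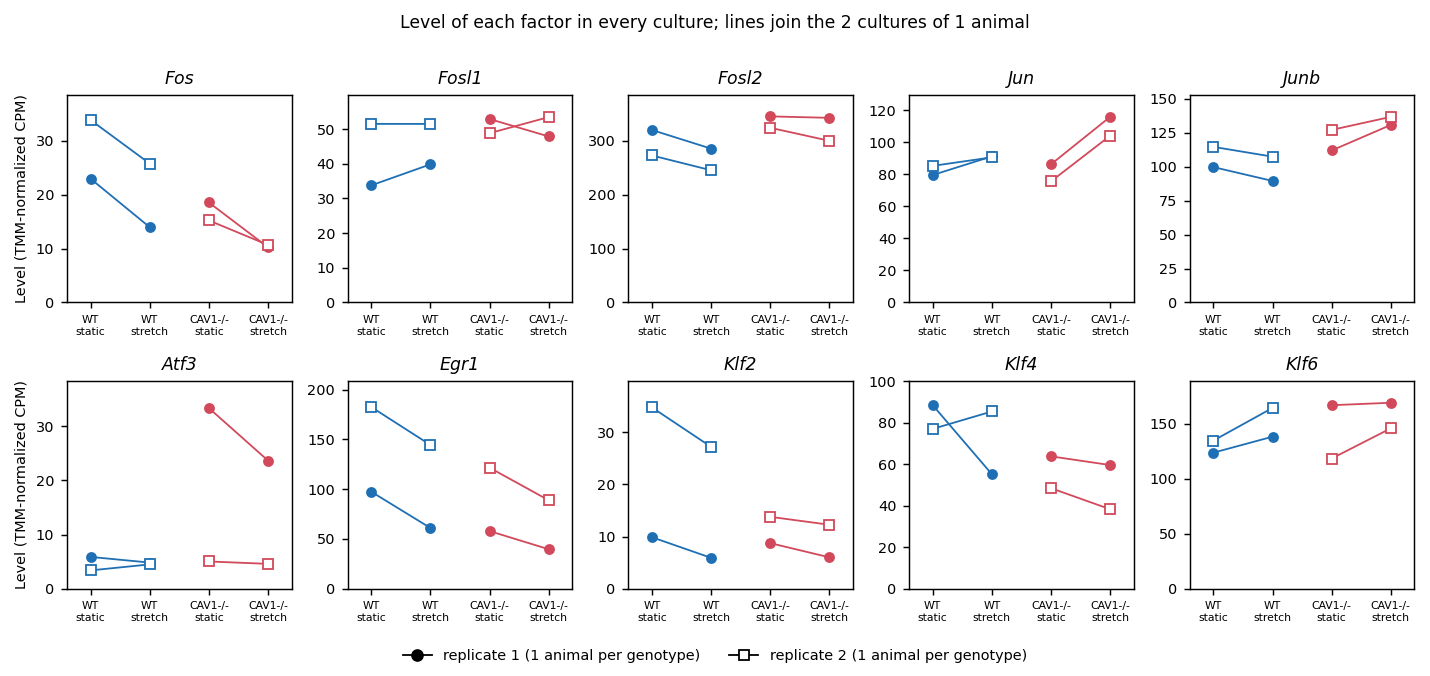
Level of each of the 10 factors (TMM-normalized CPM, axes from 0) in the 8 cultures, with blue for WT, red for CAV1-/-, filled circles for replicate 1 and open squares for replicate 2, and a line joining the static and the stretched culture of 1 animal. Fos, Fosl2, Egr1 and Klf2 slope down and Jun and Klf6 slope up in all 4 animals, while Atf3 is high in the 2 cultures of CAV1-/- replicate 1.

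The first question was whether 24 h of stretch went with other levels of these factors. After 24 h, Fos, Egr1, Klf2 and Fosl2 were lower in the stretched than in the static culture of all 4 animals, and Jun and Klf6 were higher in all 4. These are 4 of 10 members against 16.9% of all genes tested that were lower in all 4 animals, and 2 of 10 against 14.5% that were higher. The same 4 and the same 2 were found whichever of WT replicate 1, CAV1-/- replicate 1 or CAV1-/- replicate 2 was left out. Without WT replicate 2, Klf4 and Atf3 joined those lower in the remaining 3 animals, against 22.4% of genes lower. Over the 4 ways to leave out 1 animal, 21.2% to 23.9% of genes were lower and 19% to 20% higher in the remaining 3. No member passed the adjusted threshold of 0.05 in the fit with 1 mean per group. Beside these differences, the summed mesothelial markers were lower under stretch in all 4 animals (3074 against 4001 and 3673 against 3876 in WT, 1095 against 1169 and 924 against 1134 in CAV1-/- MCs), as were the summed fibroblast markers. Single markers went both ways. Of 12 mesothelial markers, 5 were lower and 1 higher in all 4 animals. Of 10 fibroblast markers, 3 were lower and 2 higher, Postn among the latter (1.25, blocked limma adjusted p = 0.0327). The part of these markers was not tested.

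Fos (GRCm38, GENCODE M21, chr12:85473890-85477273), the partner of the JUN proteins that is best known as a rapid response gene, had levels of 22.9 (replicate 1) and 33.8 (replicate 2) in static WT MCs, and the stretched WT cultures had 13.95 and 25.7 TMM-normalized CPM. The static CAV1-/- cultures had 18.5 and 15.2, and those stretched 10.2 and 10.7. The stretched culture held between 55.2% and 76.1% of the static level of the same animal. Stretched and static WT cultures overlapped. On the log2(value + 1) scale used for all differences, the mean difference over both genotypes was -0.58 (SE 0.23, n = 4 animals, limma adjusted p = 0.984). With the animal as a block the SE was 0.10 and the adjusted p was 0.0593.

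Egr1 levels were 97.4 and 183 in static WT cultures, against 61.0 and 144 after stretch. The static CAV1-/- levels were 57.9 and 122, against 39.7 and 88.9 after stretch. Within each animal, the stretched culture held between 62.6% and 79.1% of the static level, although the groups overlapped because replicate 2 was higher than replicate 1 throughout. The mean difference was -0.50 (SE 0.45, limma adjusted p = 0.991). With the animal as a block the SE was 0.074, and Egr1 fell (adjusted p = 0.0410, 95% interval -0.67 to -0.32), lower in 4 of 4 animals. Egr1 was the 1 member called with the block, which called 201 genes, 84 higher and 117 lower, the latter 0.856% of the genes tested. The same blocked design in edgeR gave Egr1 -0.50 with an adjusted p of 0.0521, above the threshold. With both cultures of 1 animal left out under the block, the limma adjusted p was 0.190 without CAV1-/- replicate 1, 0.142 without CAV1-/- replicate 2, 0.0821 without WT replicate 1 and 0.0108 without WT replicate 2.

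Klf2 (chr8:72319033-72321656), a factor known for its response to laminar flow in endothelium, had levels of 9.86 and 34.7 in static WT cultures, against 5.92 and 27.2 after stretch. The static CAV1-/- levels were 8.74 and 13.8, against 6.02 and 12.3 after stretch. It was at 59.99% to 89.0% of the static level of the same animal, with a mean difference of -0.41 (SE 0.59, limma adjusted p = 0.999, and 0.120 with the animal as a block). Fosl2 (chr5:32135801-32157842) was nearer to its static level, with 320.2 and 273 in static WT, 286 and 245 in stretched WT, 345 and 324 in static CAV1-/- and 343 and 300.1 in stretched CAV1-/- cultures. Its mean difference was -0.11 (SE 0.10, limma adjusted p = 0.991, and 0.316 with the block). In CAV1-/- replicate 1, the Fosl2 level under stretch was 99.2% of the static level.

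Jun (chr4:95049034-95052222), the JUN-family partner of FOS proteins, was higher after stretch in each animal. Its level was 79.5 and 85.3 in static WT and 91.2 and 90.6 in stretched WT cultures. The static CAV1-/- levels were 86.2 and 75.6, against 116 and 104 after stretch. The stretched culture was at 115% and 106% of the static level in the WT animals and at 134% and 138% in the CAV1-/- animals. The mean difference was 0.29 (SE 0.084, limma adjusted p = 0.984, and 0.0720 with the animal as a block). Klf6 (chr13:5861482-5870394) was at 124 and 135 in static WT, 138 and 164 in stretched WT, 167 and 118 in static CAV1-/- and 169 and 146 in stretched CAV1-/- cultures. Its mean difference was 0.19 (SE 0.14, limma adjusted p = 0.991, and 0.193 with the block). Exons of Jun overlap those of the antisense gene Junos. The library kit did not mark the strand, so reads from the shared sequence cannot be told apart.

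**Figure D2:**
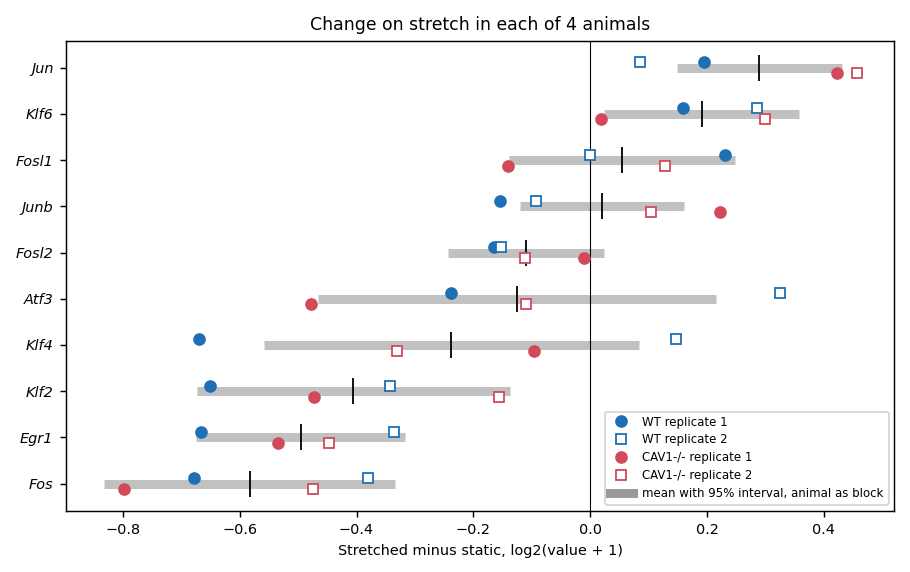
Difference between the stretched and the static culture of each of the 4 animals on the log2(value + 1) scale (horizontal axis) for the 10 factors, with the mean over both genotypes as a black tick and its 95% interval from the fit with the animal as a block as a grey bar. The intervals of Fos, Egr1 and Klf2 lie below 0 and those of Jun and Klf6 above 0 before adjustment for 13665 genes, and after it only Egr1 passed 0.05.

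The remaining members had no common direction. Klf4 (chr4:55527143-55532466) was at 88.6 and 77.1 in static WT, 55.3 and 85.5 in stretched WT, 63.9 and 48.5 in static CAV1-/- and 59.7 and 38.4 in stretched CAV1-/- cultures. It was lower in 3 animals and higher in WT replicate 2 (mean difference -0.24, SE 0.21, limma adjusted p = 0.991). Fosl1 (chr19:5447547-5455946), a FOS-family member tied to cell motility, was at 33.8 and 51.5 in static WT, 39.8 and 51.5 in stretched WT, 52.9 and 48.8 in static CAV1-/- and 47.9 and 53.5 in stretched CAV1-/- cultures, with a mean difference of 0.05 (SE 0.16). Exons of Fosl1 overlap those of Ccdc85b on the opposite strand, and reads from the shared sequence cannot be told apart without strand. Over all members, 4 mean differences were positive and 6 negative, with a median of -0.12, against a median of -0.01 over all genes tested.

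By fit and comparison, the counts were as follows. For stretch in WT, limma called 0% of genes and 0 members at the adjusted threshold, with 310 genes and 0 members at an unadjusted p under 0.05, edgeR called 0 genes and DESeq2 called 3 genes and 0 members. For stretch in CAV1-/- MCs, limma again called 0% of genes, with 286 genes and 1 member (Jun, 0.44, SE 0.12) at an unadjusted p under 0.05, edgeR called 0 genes and DESeq2 called 7 genes and 0 members. For the mean over both genotypes, limma called 0% of genes, with 647 genes and 2 members (Fos and Jun) at an unadjusted p under 0.05, edgeR called 0 and DESeq2 34 genes, and neither called a member. For this mean with the animal as a block, 5 members (Fos, Egr1, Klf2, Jun and Klf6) had an unadjusted p under 0.05, against 21% of all genes tested. Within a genotype, the same block gave 3 members in WT (Fos, Egr1 and Klf2) and 3 in CAV1-/- MCs (Fos, Egr1 and Jun). The share of all genes was not counted for these 2 comparisons. None of these members passed after adjustment (lowest blocked limma adjusted p 0.170 for Egr1 in WT and 0.156 for Jun in CAV1-/- MCs). With 2 cultures per group, the smallest exact permutation p for 1 gene is 0.333, and an exact sign-flip test over 4 animals reaches 0.125 at best.

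The balance between partners within a library does not depend on the scaling of that library. The log2 ratio of the Jun level to the Fos level was 1.79 and 1.33 in static WT, 2.71 and 1.81 in stretched WT, 2.22 and 2.31 in static CAV1-/- and 3.50 and 3.29 in stretched CAV1-/- cultures. It was higher under stretch in each animal, and the 2 stretched CAV1-/- cultures were the highest of all 8. Among FOS-family transcripts per kilobase of exon, Fosl2 made up 40.6% to 55.5% and Fosl1 27.8% to 42.1%, whereas Fos made up 16.3% and 21.0% in static WT, 10.7% and 17.5% in stretched WT, 11.3% and 10.03% in static CAV1-/- and 6.82% and 7.26% in stretched CAV1-/- cultures. Fosb, the remaining family member, stayed at 0.525% to 1.37%. Among JUN-family transcripts, Jun made up 20.6% to 23.5% in the static and 24.4% to 26.5% in the stretched cultures, with the rest from Junb and Jund. These shares are a description and were not tested.

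**Figure D3:**
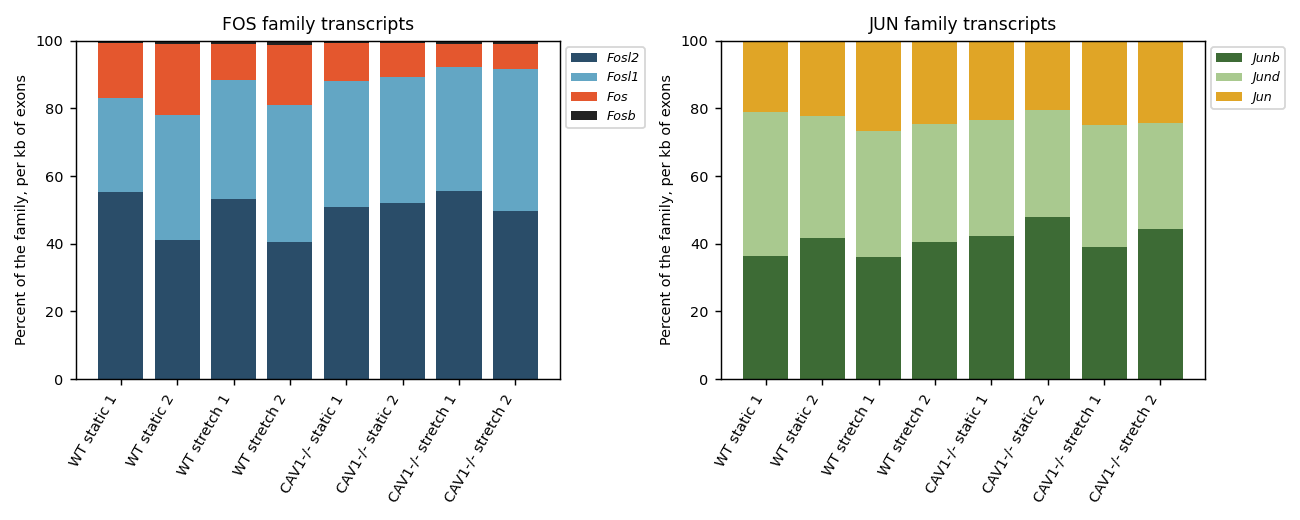
Percent of the FOS-family (left) and JUN-family (right) transcripts contributed by each gene in the 8 cultures, per kilobase of exon; each bar is 1 library and sums to 100%. The share of Fos runs from 21.0% in a static WT culture to 6.82% in a stretched CAV1-/- culture, and the share of Jun is above 24% in the 4 stretched and below 24% in the 4 static cultures.

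The second question was whether the factors differed between genotypes. Fos was lower and Fosl2 higher in both CAV1-/- cultures than in both WT cultures, in the static and in the stretched dish alike. Of all genes tested, 9.24% were lower without overlap in both conditions and 6.37% were higher. No member passed the adjusted threshold in either condition. The difference in Fos was -0.70 in static culture (SE 0.32, n = 2 against 2, limma adjusted p = 0.677) and -0.80 under stretch (SE 0.32, unadjusted p = 0.0450, adjusted p = 0.778). The latter was -0.38 without stretched WT replicate 2 and -1.22 without stretched WT replicate 1. The difference in Fosl2 was 0.18 in static culture (SE 0.15, limma adjusted p = 0.848) and 0.28 under stretch (SE 0.15, adjusted p = 0.904).

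In static culture, Fos and Klf4 were lower without overlap (2 of 10 members, against 20.8% of genes) and Fosl2 higher (1 of 10, against 16.1%). Klf4 differed by -0.56 (SE 0.30, limma adjusted p = 0.739). The difference in Egr1 was -0.66 in static culture (SE 0.63, limma adjusted p = 0.876) and -0.65 under stretch (SE 0.63, adjusted p = 0.981). That in Klf2 was -0.72 in static culture and -0.53 under stretch (SE 0.83 in each). The genotypes overlapped for both genes. Under stretch, Fos alone of the 10 was lower without overlap (against 15.9% of genes), and Fosl2, Jun and Junb were higher (3 of 10, against 14.6%). Junb (chr8:84974484-84978718) encodes a JUN-family protein that can hold Jun in check. Its level was 99.7 and 115 in static WT, 89.5 and 107 in stretched WT, 112 and 127 in static CAV1-/- and 131 and 137 in stretched CAV1-/- cultures. Its difference was 0.16 in static culture (SE 0.14, limma adjusted p = 0.868) and 0.44 under stretch (SE 0.14, unadjusted p = 0.0199, adjusted p = 0.607). The difference in Jun was -0.03 in static culture, a sign that turned to 0.000562 under DESeq2, and 0.27 under stretch (SE 0.12, limma adjusted p = 0.856). Exons of Junb and Prdx2 overlap on opposite strands, and reads from the shared stretch of sequence cannot be told apart without strand.

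**Figure D4:**
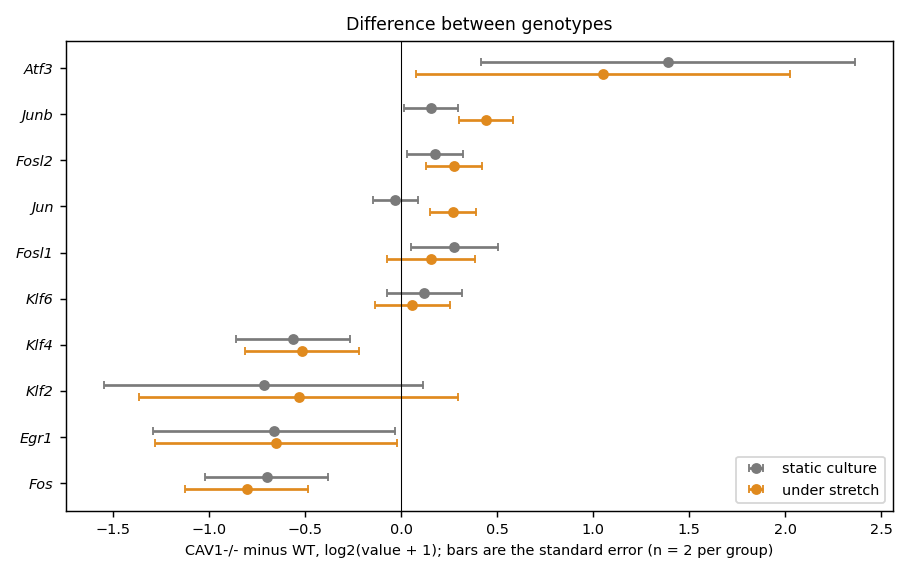
Difference between CAV1-/- and WT cultures for each factor on the log2(value + 1) scale (horizontal axis), with grey for static culture and orange for stretch; points are fitted differences and bars their standard error (n = 2 cultures per group). Fos, Klf4, Egr1 and Klf2 lie to the left and Fosl2, Junb, Fosl1, Klf6 and Atf3 to the right of 0 in both conditions. The bars of Atf3, Klf2 and Egr1 are the widest.

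The genes called between genotypes were few, at 10 (0.0732% of those tested) in static culture and 8 (0.0585%) under stretch, with 0 members in either. At an unadjusted p under 0.05, limma gave 1117 genes and 0 members in static culture and 856 genes and 2 members (Fos and Junb) under stretch. By edgeR, 2 and 6 genes were called and by DESeq2 309 and 237 genes, again with 0 members.

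Whether the stretch response differed by genotype was tested as an interaction. It called 0% of genes by limma, with 66 genes and 0 members at an unadjusted p under 0.05, and 0 genes by edgeR and DESeq2. Junb was lower under stretch in both WT animals (89.8% and 93.7% of static) and higher in both CAV1-/- animals (117% and 108%). Such opposite directions were seen in 8.98% of all genes tested. The interaction of Junb was 0.29 (SE 0.20, limma adjusted p = 1.00, and 0.947 with the animal as a block). That of Jun was 0.30 (SE 0.17, limma adjusted p = 1.00, and 0.947 with the block). For Egr1 the differences on stretch, -0.50 in WT and -0.49 in CAV1-/- MCs, differed by 0.0099 (SE 0.89). With the animal as a block, the SE of this difference was 0.15 and its 95% interval ran from -0.35 to 0.37.

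Atf3, Egr1 and Klf2 had the widest ranges, with large differences between the animals of 1 genotype. Atf3 (chr1:191170296-191218039) was at 33.4 and 23.7 in the static and the stretched culture of CAV1-/- replicate 1 and between 3.39 and 5.88 in the other 6 cultures. CAV1-/- and WT cultures overlapped in both conditions. The fitted difference was 1.39 (SE 0.97, limma adjusted p = 0.824) in static culture and 1.05 (SE 0.97, adjusted p = 0.981) under stretch. The 2 cultures with high Atf3 are those in which the leukocyte markers summed to 4735 and 4757, and the part of leukocytes in the Atf3 level was not tested. The 3 genes with the pattern most like that of Atf3, by the root mean square difference of centred log2 values over the 8 libraries among 10797 genes, were Alas1 (0.19), Cfp (0.21) and Csf2ra (0.23). Alas1, the nearest, was at 290 and 180 in the static and the stretched culture of CAV1-/- replicate 1 and between 49.98 and 62.7 in the others. Cfp encodes the complement regulator properdin and Csf2ra a receptor chain for GM-CSF. Csf2ra was at 45.2 and 35.9 in the CAV1-/- replicate 1 cultures and between 8.32 and 11.2 in the others.

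Egr1 was higher in replicate 2 than in replicate 1 in all 4 groups, by 1.87 times in static WT, 2.37 times in stretched WT, 2.10 times in static CAV1-/- and 2.24 times in stretched CAV1-/- cultures. For Klf2 these ratios were 3.52, 4.59, 1.58 and 2.04. The fibroblast marker sum was also higher in the replicate 2 cultures of both genotypes, and its part in these levels was not tested. The replicate numbers of the 2 genotypes mark different animals. By the same measure of likeness, Fam102a (0.14), Rgs3 (0.16) and Nynrin (0.16) were nearest to Egr1, and Crip2 (0.13), Apcdd1 (0.15) and Aoc3 (0.16) to Klf2.

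**Figure D5:**
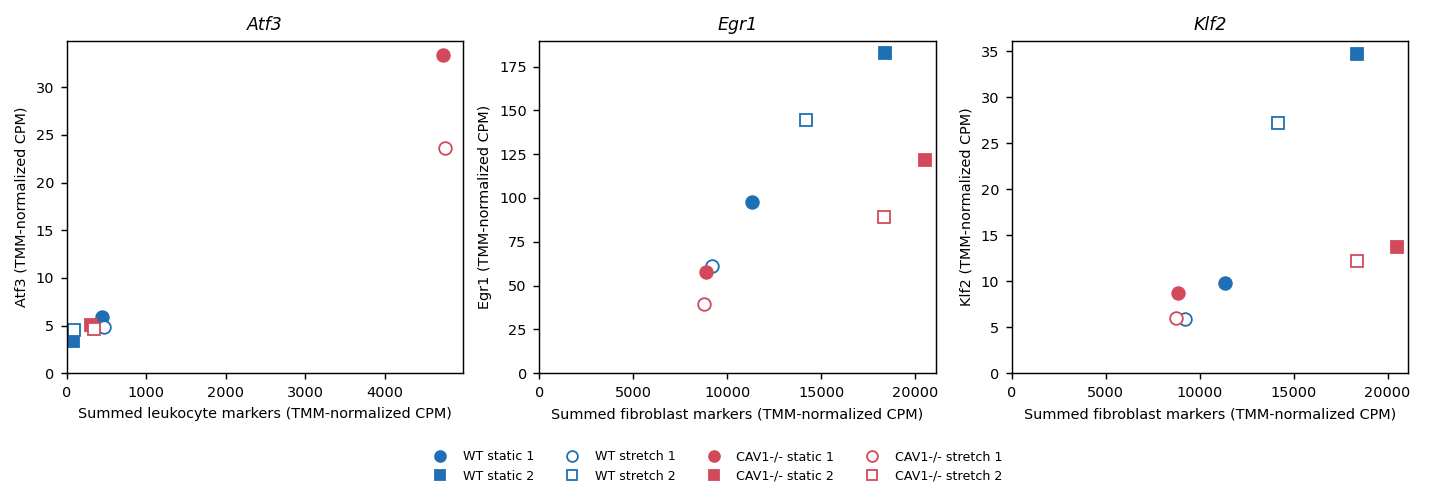
Level of Atf3 against the summed leukocyte markers and of Egr1 and Klf2 against the summed fibroblast markers (all TMM-normalized CPM, axes from 0) in the 8 cultures, with blue for WT, red for CAV1-/-, circles for replicate 1, squares for replicate 2 and open symbols for stretch. The 2 CAV1-/- replicate 1 cultures stand apart in the Atf3 panel, at 33.4 and 23.7 against at most 5.88.

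The genes that act around these factors were described by lists. Feedback inhibitors of the MAPK pathway, listed together with RNA-binding proteins that act on immediate-early messages, are themselves induced by the same signals. Of 15 tested, 5 were lower (against 16.9% of all genes) and 5 higher (against 14.5%) under stretch in all 4 animals, with a median difference of 0.06 against -0.01 over all genes. In the fit with 1 mean per group 0 passed the threshold, and with the animal as a block 3 did, all lower (against 0.856% of all genes). Zfp36, which encodes an RNA-binding protein that speeds decay of immediate-early messages, was at 69.4% to 76.4% of the static level (difference -0.47, blocked limma SE 0.068, adjusted p = 0.0380). Its relative Zfp36l1 was at 63.3% to 74.7% (-0.53, SE 0.056, blocked limma adjusted p = 0.0291). Spry1, an inhibitor of receptor tyrosine kinase signalling, was at 48.1% to 64.1% (-0.75, SE 0.12, blocked limma adjusted p = 0.0424). All 3 were also called by edgeR with the block. Each of the limma calls was lost under the block without CAV1-/- replicate 1 or without CAV1-/- replicate 2. Those of Zfp36 and Spry1 were also lost without WT replicate 1. With 1 animal left out under the block, the differences ran from -0.44 to -0.50 for Zfp36 and from -0.52 to -0.55 for Zfp36l1. For Spry1 they ran from -0.66 to -0.84. In static culture, the widest differences between CAV1-/- and WT without overlap were those of Zfp36l1 (-1.30, SE 0.73, limma adjusted p = 0.769) and Spry4, another Sprouty gene (-1.002, SE 0.47, adjusted p = 0.690).

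Of 14 AP-1 target genes, 12 had a positive difference on stretch in WT (median 0.46) and 9 in CAV1-/- MCs (median 0.09). The interaction was negative for 13 of them (median -0.40, against 0.01 over all genes), with 0 called. For the mean over both genotypes, 10 differences on stretch were positive, with a median of 0.20 against -0.01 over all genes. With the animal as a block 1 passed, Vegfa, which encodes a vascular growth factor and is named here because it passed (0.50, SE 0.066, blocked limma adjusted p = 0.0327, and 0.151 without CAV1-/- replicate 1, 0.137 without CAV1-/- replicate 2, 0.0643 without WT replicate 1 and 0.0102 without WT replicate 2). Vegfa was at 169 and 136 in static WT, 269 and 185 in stretched WT, 307 and 259.9 in static CAV1-/- and 397 and 372 in stretched CAV1-/- cultures. The widest differences of 1 direction in all 4 animals were those of Spp1, which encodes osteopontin (0.91, blocked limma adjusted p = 0.0606), Ptgs2, which encodes cyclooxygenase 2 (0.80, 0.0508), and Ccnd1, the cyclin D1 gene (-0.76, 0.151). In static culture, 13 of the 14 targets had a positive difference between CAV1-/- and WT (median 0.96, against -0.01), and 10 were higher without overlap (against 16.1% of all genes). Under stretch, 12 were positive (median 0.51) and 6 higher without overlap (against 14.6%). The list was chosen with earlier results of these data known, so these shares are a description. In the fit with 1 mean per group none passed the threshold. Mmp13, a collagenase, was at 11.3 and 6.38 in static WT and at 126 and 50.8 in static CAV1-/- MCs (difference 3.09, SE 0.52, limma adjusted p = 0.122). Mmp9, a gelatinase that leukocytes also express, was at 2.73 and 2.18 against 70.4 and 121 (4.76, SE 0.87, limma adjusted p = 0.143). In the same 2 static CAV1-/- cultures the leukocyte markers summed to 4735 and 303, and their part in the Mmp9 level was not tested. Il6, the gene of a cytokine, was at 1.47 and 2.50 in static WT against 28.8 and 70.0 in static CAV1-/- MCs (3.97, SE 1.00, limma adjusted p = 0.295).

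Of the 11 other AP-1 and small MAF factors, 8 had a positive mean difference on stretch (median 0.12), and none passed with or without the block. Maf, a large MAF factor gene, was lower under stretch in all 4 animals (-0.48, blocked limma adjusted p = 0.0735). It was at 245 and 326 in static WT, 127 and 241 in stretched WT, 39.3 and 172 in static CAV1-/- and 36.1 and 126 in stretched CAV1-/- cultures, with a static genotype difference of -1.77 (SE 0.84, limma adjusted p = 0.693). Fosb was higher under stretch in all 4 animals, though at low levels, between 1.96 and 5.36 over the 8 cultures (0.40, blocked limma adjusted p = 0.151). Jdp2, which encodes a repressor of AP-1, differed by -0.58 between static CAV1-/- and WT MCs (SE 0.17, limma adjusted p = 0.381). Of the 15 other EGR, NR4A and immediate-early genes, 5 had a positive and 10 a negative mean difference on stretch (median -0.04), with none called. Nr4a2 was higher under stretch in all 4 animals (0.72, blocked limma adjusted p = 0.0846). Nr4a3, an orphan nuclear receptor gene, was at 55.1 and 34.7 in static WT, 17.2 and 54.5 in stretched WT, 6.02 and 6.89 in static CAV1-/- and 5.68 and 8.04 in stretched CAV1-/- cultures. Its difference between genotypes was -2.59 in static culture (SE 0.53, limma adjusted p = 0.194) and -2.03 under stretch (SE 0.53, adjusted p = 0.438).

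Of the 14 other KLF and SP factors, 5 had a positive and 9 a negative mean difference on stretch. By genotype, 11 were negative on stretch in WT (median -0.17), whereas 8 were positive in CAV1-/- MCs (median 0.08). The interaction was positive for 12 (median 0.28, against 0.01 over all genes), with none called. In static culture 13 of the 14 had a negative difference between CAV1-/- and WT (median -0.19, against -0.01), with 6 lower without overlap (against 20.8% of all genes) and none called. Under stretch 8 were negative (median -0.05), with 3 lower without overlap (against 15.9%) and none called. Klf9 differed by -0.65 (SE 0.27, limma adjusted p = 0.620) and Klf3 was lower under stretch in all 4 animals (-0.27, blocked limma adjusted p = 0.174), whereas Klf8, at 0.308 to 2.86, was higher in all 4 (0.36, blocked limma adjusted p = 0.243). Among 24 MAPK pathway kinases the mean stretch differences split into 10 positive and 14 negative (median -0.01), and among 9 SRF, TCF and MRTF factors into 5 and 4, with none called with or without the block. Map3k5, which encodes the stress kinase ASK1, was lower under stretch in all 4 animals (-0.53, blocked limma adjusted p = 0.0740), and Map2k6 differed by 0.62 between static CAV1-/- and WT MCs (limma adjusted p = 0.759). Elk3, an ETS-domain partner of SRF, was higher under stretch in all 4 animals (0.39, blocked limma adjusted p = 0.115), and Mef2c differed by -1.62 between genotypes in static culture (SE 0.47, limma adjusted p = 0.383). Of 11 EGR1 and KLF target genes, 6 had a positive and 5 a negative difference on stretch, again with none called. Pdgfb, at 0.411 to 4.37, was higher under stretch in all 4 animals (0.60, blocked limma adjusted p = 0.124). Fgf2 differed by -1.34 between static CAV1-/- and WT MCs (SE 0.28, limma adjusted p = 0.207). Of 10 stress genes, 8 had a positive mean difference on stretch, and their summed level was higher in the stretched culture of all 4 animals, at 3667 against 2892, 3036 against 2800.0, 3582 against 2976 and 2951 against 2806. Hsph1, a heat shock protein gene, differed by 0.63 (blocked limma adjusted p = 0.0753), and Hspa1b differed by -0.87 between genotypes in static culture (limma adjusted p = 0.834). The part of this stress gene level in the stretch differences was not tested.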

How the data were processed

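RNAseq of poly-A RNA was measured in 8 libraries. As the study's methods and the labels give it, adapters were removed by the authors with Cutadapt, RSEM gave expected counts on GRCm38 transcripts, and edgeR's TMM method normalized them. The deposited signal is TMM-normalized CPM. All values (100%) were whole multiples of the value of 1 read within a tolerance of 1e-06, so reads were recovered for the count tests, and 9777738 to 21203938 reads per library set the precision. Groups came from the labels, which give 2 cultures per group, fewer than the study states for these conditions, and the p-values cover the spread between cultures of 2 animals per genotype.

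Values were tested as log2(value + 1) with limma 3.58.1 (R 4.3.3) in 1 fit with a mean per group over all 8 libraries, two-sided, with Benjamini-Hochberg adjustment over 13665 genes that reached a value of 1 in 2 or more libraries (22 were left out). Adjusted p under 0.05 was called. Alternatives were edgeR 4.0.16, DESeq2 1.42.0, other pseudocounts, filters and scalings, a replicate block and left-out cultures. The labels give the same animal number to a static and a stretched culture, and their deviations from the group means correlated (r = 0.703 in WT and 0.850 in CAV1-/-, across genes, which are not independent), so the animal served as the block for stretch. Scripts were tested on simulated data.

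The members and lists were chosen with earlier results of these data known. Named from each list were the genes past the threshold and, where fewer than 3, up to 3 with the largest difference and no overlap, and the 3 genes most like each of the 3 members of widest range. Of the genes this rule gave, the text holds for each list but the marker lists those of largest mean stretch difference and largest static genotype difference, with some others. Vegfa was named after its values were seen. Positions and exon lengths are from GENCODE M21, promoters from RefSeq.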

Additional observations from a re-analysis of the deposited data

Results flagged for a closer look

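Junb had opposite directions on stretch in the 2 genotypes, lower in both WT animals and higher in both CAV1-/- animals, with an interaction of 0.29 (log2, CAV1-/- minus WT). The test of the difference did not pass the threshold (limma adjusted p = 1.00, and 0.947 with the animal as a block), and 8.98% of all genes tested had opposite directions in this sense. Exons of Junb and Prdx2 overlap, and reads from the shared sequence cannot be told apart.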

How the results depend on the processing

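Fits that moved a count of called genes by over 1.5 times were these. With the replicate block, in limma and in edgeR, the counts were 1 and 2 genes for stretch in CAV1-/- MCs, 201 and 152 for the mean stretch difference, 246 and 229 for genotype in static culture (10 without it) and 110 and 90 under stretch (8 without it), and the count of members for the mean stretch difference was 1 in limma. Between genotypes the block rests on replicate numbers of different animals, which share only a number (r = 0.522 in static and 0.484 in stretched culture), and it called 0 members there. Of the other lists, Mmp13, Spp1, Vegfa, Spry4 and Fgf2 passed with it in static culture and Mmp13 and Spry4 under stretch (markers not counted), each of which missed the threshold without it. The block changed no other call of a member. For genotype in static culture, edgeR without the block called 2 genes and limma without a trend called 6. DESeq2 called 3, 7, 34, 309 and 237 genes for stretch in WT, stretch in CAV1-/- MCs, the mean stretch difference and genotype in static culture and under stretch. The cause was not tested. Leaving out cultures gave 0 to 8 genes for genotype in static culture and 0 to 7 under stretch. For the mean stretch difference it gave 0 to 769 genes and 0 to 3 members, the highest without both cultures of WT replicate 2 under the block, a setting chosen after seeing the data, with Fos, Egr1 and Klf4 called. Jun in static culture (-0.03 between genotypes) was the 1 of 84 fold changes of members and named genes that turned sign outside left-out cultures (0.000562 under DESeq2). Of these, 27 turned sign with cultures left out. With 1 culture left out of the fit with 1 mean per group, the stretched and static means no longer rested on the same animals. The ranges for stretch therefore include the spread between animals. Within animals, Egr1, Klf2 and Fosl2 were lower and Klf6 higher under stretch in 4 of 4. The log2 ranges were as follows. For the mean stretch difference, Atf3 -0.75 to 0.50, Fosl1 -0.094 to 0.20, Junb -0.045 to 0.085, Klf2 -0.91 to 0.10, Ccnd1 -1.59 to 0.076, Maf -1.01 to 0.040. For stretch in WT, Atf3 -0.28 to 0.37, Egr1 -1.12 to 0.11, Fosl1 -0.18 to 0.41, Junb -0.25 to 0.0067, Klf2 -1.51 to 0.52, Klf4 -0.67 to 0.15. For stretch in CAV1-/- MCs, Atf3 -1.55 to 0.96, Egr1 -1.06 to 0.081, Fosl1 -0.14 to 0.13, Fosl2 -0.16 to 0.034, Klf2 -0.77 to 0.14, Klf4 -0.53 to 0.10, Klf6 -0.087 to 0.40. For the static genotype difference, Fosl1 -0.019 to 0.58, Jun -0.12 to 0.065, Klf2 -1.57 to 0.14, Klf6 -0.12 to 0.37. For the genotype difference under stretch, Atf3 -0.017 to 2.12, Fosl1 -0.025 to 0.34, Klf2 -1.55 to 0.48, Klf6 -0.066 to 0.18. Other pseudocounts, filters and scalings turned no sign and moved the median of all genes by under 0.1 (log2). With 2 cultures per group, only differences well above the spread between animals can pass, and Atf3 rests on as few as 42 reads.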
